A study of Mus musculus with 9 samples.

Results

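The genes described here are 10 transcription factors of the immediate early response, namely Fos, Fosb, Jun, Junb, Egr1, Egr2, Egr3, Egr4, Npas4 and Atf3, measured in the mouse hippocampus after inhalation of linalyl acetate, LA for short, an ester that gives lavender oil much of its scent. They were taken by symbol, low-signal members included, and they sit on 12 of the 22206 transcript clusters of the Clariom S array, since Egr3 has 3 clusters. A transcript cluster is the array's unit for a gene, and its value is a log2 signal. All animals were male ICR mice, an outbred stock, 8 weeks old. The vehicle group inhaled 1% Tween 80, a detergent, and the treated groups inhaled 1% LA or 10% LA, in each case by whole-body exposure over 7 days, with 3 arrays in each of the 3 groups and 1 array per sample. Every group also went through the tail suspension test, a stressor, after 30 min of inhalation, so that no group was left undisturbed and all values describe a hippocampus after that test. The labels do not say how long after the test the tissue was taken for the inhalation groups.

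Immediate early genes are transcribed within minutes of synaptic activity, growth factor signalling or stress, without new protein synthesis, and their transcripts decay quickly. Fos and Fosb pair with Jun or Junb to form AP-1, a dimer that binds DNA, and Atf3 joins the same leucine zipper family after stress. Egr1, Egr2, Egr3 and Egr4 carry zinc fingers that read a GC-rich site, and Npas4 is a factor of neurons that answers calcium entry. In the hippocampus these genes serve as markers of recent neuronal activity and are tied to memory formation.

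The DNA in front of these genes is where their shared inducers act. CREB binds the cAMP response element, searched here as TGACGTCA, or its 5-letter part TGACG, and serum response factor binds the CArG box. In RefSeq's mouse promoters (GRCm38.p6), 8 of the 10 symbols matched, all but Egr1 and Egr3, and the 250 bases before the annotated start were read on both strands. Capitals mark TGACG, which reads CGTCA on the other strand, and in Egr2 also the CArG box. Some genes have several annotated starts, so that 12 promoters stood for the 8 genes, 5 of them those of Egr2, of which 1 is shown. The 5 promoters shown are those of Junb, Fos, Npas4 and Egr2, whose signals were lower after LA in at least 1 comparison, and of Egr4, whose treated and vehicle signals overlapped.
Junb, chr8:84978749-84978998, minus strand: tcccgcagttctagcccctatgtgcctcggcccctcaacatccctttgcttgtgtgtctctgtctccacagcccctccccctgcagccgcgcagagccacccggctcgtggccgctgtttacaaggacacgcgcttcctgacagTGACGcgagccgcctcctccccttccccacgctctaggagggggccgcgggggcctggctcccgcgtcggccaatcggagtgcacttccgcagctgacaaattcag
Fos, chr12:85473640-85473889, plus strand: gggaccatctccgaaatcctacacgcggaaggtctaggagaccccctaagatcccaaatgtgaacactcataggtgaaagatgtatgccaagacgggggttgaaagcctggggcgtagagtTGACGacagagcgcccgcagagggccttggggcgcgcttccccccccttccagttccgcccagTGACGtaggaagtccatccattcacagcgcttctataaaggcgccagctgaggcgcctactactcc
Npas4, chr19:4989972-4990221, minus strand: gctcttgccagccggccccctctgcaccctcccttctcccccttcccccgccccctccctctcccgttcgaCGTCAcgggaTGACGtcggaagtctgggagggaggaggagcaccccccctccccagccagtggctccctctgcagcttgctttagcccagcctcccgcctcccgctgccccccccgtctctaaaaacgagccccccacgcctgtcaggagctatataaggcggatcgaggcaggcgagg
Egr2, chr10:67537619-67537868, plus strand: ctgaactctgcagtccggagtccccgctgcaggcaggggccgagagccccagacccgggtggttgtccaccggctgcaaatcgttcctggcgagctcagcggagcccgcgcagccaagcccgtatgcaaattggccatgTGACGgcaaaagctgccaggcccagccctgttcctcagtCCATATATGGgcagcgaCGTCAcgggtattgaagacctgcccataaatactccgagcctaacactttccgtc
Egr4, chr6:85513590-85513839, minus strand: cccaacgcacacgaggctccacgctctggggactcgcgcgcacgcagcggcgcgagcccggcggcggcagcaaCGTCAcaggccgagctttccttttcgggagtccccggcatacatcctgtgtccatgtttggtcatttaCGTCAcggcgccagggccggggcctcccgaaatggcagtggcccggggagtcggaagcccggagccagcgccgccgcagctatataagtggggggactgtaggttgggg
The Junb window held TGACG once, with its first letter 106 bases before the start, written -106, and the Fos window held it at -129 and -66. In Npas4 the matches stood at -179 and -169, in Egr2 at -111 and -55 with the CArG box at -72 between them, and in Egr4 at -177 and -109. TGACG occurred in 9 of the 12 promoters, the others being that of Jun and 2 of Egr2, against 17.8% of all 32851 promoters of that length. The full TGACGTCA, which contains TGACG, occurred in 0 of the 12, against 1.55% of all promoters. A CArG box stood in 4 of the 12, all of Egr2 and with windows that overlap in part, against 1.47% of all promoters. By gene the box stood in 1 of the 8 and TGACG in 7, as Egr2 windows that overlap hold the same sites. The shares of all promoters are counted by promoter, not by gene. Bases further upstream than 250 were not searched, so a missing match does not show that a gene lacks the site. The AP-1 site TGANTCA stood in 0 of the 12 against 6.75%, and the EGR site GCGNGGGCG in 1, that of Fosb, against 4.7%. Egr4 held these 5 letters as often as Fos and Npas4 did.

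Some features of the deposited data touch the values that follow. For the third vehicle array the 2 deposited tables, called here the signal table and the series matrix, disagreed: their columns correlated at r = 0.981 over all clusters, with 1778 clusters more than 1 log2 unit apart. Over the 12 clusters the gap reached 1.90 log2 units on that array, against at most 0.304 on any of the other 8. The differences of the members from vehicle are therefore given from both tables, and the counts over the 12 clusters also without that array. The sample descriptions conflict in part with the titles that set the groups: those of all 3 vehicle samples and of 1% LA replicates 1 and 2 tell of oral dosing, and 3 of these 5 name LPS, a bacterial endotoxin, for vehicle replicate 3 and 1% LA replicates 1 and 2. The labels used here hold no description text for 1% LA replicate 3 or for the 10% LA samples. Markers fitted the tissue: the synaptic gene Snap25 ranged from 17.54 to 18.04 over the 9 arrays, the glutamate transporter gene Slc17a7 from 17.42 to 18.07 and Prox1, which marks dentate granule cells, from 9.63 to 11.47. The mean of 10 neuronal markers lay between 14.05 and 14.49 in vehicle, between 14.19 and 14.46 at 1% LA and between 14.19 and 14.36 at 10% LA. In these bulk samples fewer active cells and less transcript per cell cannot be told apart. A low-signal filter kept 13323 clusters whose mean over the 9 arrays exceeded 5.98, the 40th percentile. Of the 12 clusters, 9 passed it, and Fos, Npas4 and the Egr3 cluster TC1400000990.mm.2 lay below it and are given from a fit of all clusters.

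Junb showed the clearest separation among the AP-1 genes. Its protein pairs with Fos and restrains as well as replaces Jun. On the cluster TC0800002597.mm.2 the log2 signals were 8.49, 8.19 and 8.70 in vehicle, 7.18, 7.39 and 6.95 at 1% LA, and 6.97, 7.78 and 6.77 at 10% LA. All 6 treated arrays lay below the lowest vehicle array, and the middle array of 10% LA came nearest to it. The group means were 8.46 ± 0.26 (SD, n = 3) in vehicle, 7.17 ± 0.22 (SD, n = 3) at 1% LA and 7.17 ± 0.53 (SD, n = 3) at 10% LA. Both doses thus gave a log2 difference of -1.29 (SE 0.26), which is 2.44-fold lower, with a 95% interval from -1.86 to -0.72. In limma's test the unadjusted p was 0.000389 at each dose, and the adjusted p over all clusters kept was 0.356 at 1% LA and 0.312 at 10% LA. With series matrix values, 8.20 for the third vehicle array, the differences were -1.09 at 1% LA and -1.05 at 10% LA, and the groups still did not overlap. Exact permutation tests of 3 arrays against 3 cannot go below p = 0.1, and of 6 against 3 not below p = 0.0238. Junb reached both of these smallest values, as does any cluster whose treated arrays all lie below vehicle. Atf3, Npas4 and the Egr3 clusters TC1400000990.mm.2 and TSUnmapped00000046.mm.2 reached them as well.

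Jun, the partner that gives AP-1 most of its activating strength, had its larger difference at 10% LA. The signals of TC0400003079.mm.2 were 10.09, 10.87 and 10.12 in vehicle, 10.59, 10.19 and 10.06 at 1% LA, and 9.61, 9.77 and 9.67 at 10% LA. The 1% LA arrays lay within the vehicle range or just under it, whereas every array of 10% LA lay below all others. At 10% LA the log2 difference from vehicle was -0.68 (SE 0.23, adjusted p = 0.312) and in the series matrix -0.77. Without vehicle replicate 2, the array at 10.87, it was -0.42 with an unadjusted p of 0.0674 by limma. At 1% LA it was -0.08 (SE 0.23), with a 95% interval from -0.59 to 0.43, and -0.15 in the series matrix. Set directly against 1% LA, 10% LA was lower by -0.60 (SE 0.23) in the signal table and by -0.62 in the series matrix, with an unadjusted p of 0.0249 and an adjusted p of 0.9999 in the signal table. The unadjusted p rose to between 0.0551 and 0.107 by limma without 1% LA replicate 1, 10% LA replicate 1 or 10% LA replicate 3. Jun was the 1 cluster of the 12 whose 2 dose groups did not overlap, in a comparison where 3.58% of all clusters were likewise lower without overlap.

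Fos and Fosb, the AP-1 partners that need a Jun protein to bind DNA, had low signals and smaller differences. Fos (TC1200000833.mm.2) read 5.92, 6.32 and 5.64 in vehicle, 5.09, 5.93 and 5.22 at 1% LA, and 5.31, 5.53 and 5.43 at 10% LA. The 10% LA arrays lay below all vehicle arrays, and 1% LA replicate 2 stood inside the vehicle range. The log2 differences were -0.55 at 1% LA and -0.54 at 10% LA (SE 0.24 each), with unadjusted p of 0.0442 and 0.0476 by limma. These rose above 0.05 for most single arrays left out, up to 0.182 at 1% LA and 0.193 at 10% LA, both without vehicle replicate 2, where the differences were -0.37 and -0.36. With the series matrix, where the third vehicle array read 6.31 instead of 5.64, they were -0.70 and -0.69, and both doses lay below vehicle without overlap. At 10% LA the differences of Fos and Jun were larger in the series matrix than in the signal table, and those of Junb, Atf3 and Npas4 smaller. Fosb (TC0700002477.mm.2) read 6.75, 7.05 and 7.10 in vehicle, 6.59, 6.95 and 6.75 at 1% LA, and 6.90, 6.78 and 6.44 at 10% LA. Its groups overlapped in both tables. The log2 differences of Fosb were -0.20 and -0.26 (SE 0.19 each), and their 95% intervals ran from -0.62 to 0.21 at 1% LA and from -0.67 to 0.15 at 10% LA. With series matrix values they were -0.10 and -0.14.

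Atf3, a stress-induced factor that mostly represses its targets, was lower by less than Junb. The signals of TC0100003804.mm.2 were 10.43, 10.42 and 10.97 in vehicle, 10.01, 10.09 and 10.31 at 1% LA, and 9.68, 9.91 and 10.12 at 10% LA. All treated arrays were below all vehicle arrays, by as little as the step from 10.42 to 10.31. The log2 difference was -0.47 (SE 0.20) at 1% LA and -0.70 (SE 0.20) at 10% LA, with unadjusted p of 0.0398 and 0.00494 in limma's test and adjusted p of 0.403 and 0.312. The series matrix gave 10.10 for the third vehicle array, a 1% LA difference of -0.14 with overlapping groups, and a 10% LA difference of -0.44 without overlap. Without the third vehicle array the signal table gave -0.29 at 1% LA (unadjusted p = 0.176 by limma), and p was 0.113 without 1% LA replicate 1, 0.0898 without 1% LA replicate 2 and 0.0500 without 10% LA replicate 2. The signal table arrays of Atf3 at 1% LA still lay below vehicle with that array left out. In the series matrix vehicle replicate 1, at 10.29, also lay below 1% LA replicate 3, at 10.32. The separation of Atf3 at 1% LA therefore differed between the tables.

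Npas4, which neurons switch on after calcium entry and which shapes inhibitory synapses, had large log2 differences that leaned on 1 vehicle array. The cluster TC1900000944.mm.2 read 6.75, 4.53 and 5.50 in vehicle, 3.96, 4.41 and 4.18 at 1% LA, and 4.23, 4.23 and 4.01 at 10% LA. The vehicle arrays spread over 2.22 log2 units, while the 6 treated arrays stayed within a narrow band just under the lowest of them. With means of 5.59 ± 1.11 (SD, n = 3), 4.18 ± 0.23 (SD, n = 3) and 4.16 ± 0.13 (SD, n = 3), the log2 differences were -1.41 and -1.44 (SE 0.41 each), and the unadjusted p by limma was 0.00482 and 0.00428. The series matrix gave -1.30 and -1.34, again without overlap. Without vehicle replicate 1, the array at 6.75, the differences were -0.83 and -0.86, with unadjusted p of 0.0109 and 0.00913 by limma. The mean of Npas4 over the 9 arrays, 4.64, lay at the 19.4th percentile of all clusters, and how far its treated values stood above what the array reads without any transcript was not tested.

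Egr1, the best-known memory-linked member of its family, had large differences and a large spread. The cluster TC1800000301.mm.2 read 13.03, 12.44 and 14.05 in vehicle, 11.26, 12.33 and 11.96 at 1% LA, and 12.01, 12.73 and 10.89 at 10% LA. The third vehicle array was the highest of all, 1% LA lay below vehicle without overlap, and 10% LA replicate 2 exceeded vehicle replicate 2. The log2 differences were -1.32 and -1.30 (SE 0.48 each), with 95% intervals from -2.38 to -0.27 and from -2.35 to -0.24 and adjusted p of 0.369 and 0.319. The third vehicle array read 12.15 in the series matrix, 1.90 log2 units lower, and the differences there were -0.68 and -0.67 with overlapping groups. Without the third vehicle array the signal table gave -0.89 at 1% LA and -0.86 at 10% LA, with unadjusted p of 0.0891 and 0.0978 by limma. The difference of Egr1 was -1.03 at 1% LA without 1% LA replicate 1, and -0.80 at 10% LA without 10% LA replicate 3, with unadjusted p of 0.0785 and 0.110 by limma.

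Egr2, which also drives myelination in peripheral nerve, read 8.56, 7.85 and 8.73 in vehicle, 7.68, 7.79 and 7.88 at 1% LA, and 7.84, 7.71 and 7.37 at 10% LA on TC1000000636.mm.2. The 10% LA arrays lay just below the lowest vehicle array, and 1% LA replicate 3 just above it. The log2 differences were -0.60 and -0.74 (SE 0.23 each), with unadjusted p of 0.0260 and 0.00851 by limma, and -0.23 and -0.33 in the series matrix with overlap at both doses. Without the third vehicle array they were -0.42 and -0.56, and at 1% LA the unadjusted p of Egr2 lay between 0.0531 and 0.111 by limma without vehicle replicate 1 or 3 or 1% LA replicate 1 or 2.

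The 3 Egr3 clusters did not behave alike. Egr3 acts downstream of activity and supports lasting forms of plasticity. On TC1400000990.mm.2, below the filter, the signals were 5.87, 5.66 and 6.43 in vehicle, 5.04, 4.79 and 5.28 at 1% LA, and 4.86, 5.28 and 5.26 at 10% LA, with every treated array below every vehicle array. On TSUnmapped00000046.mm.2 they were 10.06, 9.93 and 10.78 in vehicle, 9.61, 9.42 and 9.45 at 1% LA, and 9.49, 9.66 and 9.29 at 10% LA, again without overlap. On TSUnmapped00000048.mm.2 they were 8.50, 8.94 and 8.65 in vehicle, 8.92, 8.68 and 8.35 at 1% LA, and 8.52, 8.42 and 9.16 at 10% LA, and here the groups were fully mixed. The first cluster of Egr3 differed by -0.95 at 1% LA and -0.85 at 10% LA (SE 0.23 each, unadjusted p of 0.00137 and 0.00293 by limma), and by -0.66 and -0.57 in the series matrix, without overlap in either table. The second differed by -0.76 and -0.78 (SE 0.23 each, adjusted p of 0.356 and 0.312), and by -0.36 and -0.40 in the series matrix, where the groups overlapped because the third vehicle array read 9.53. Without that array the second gave -0.502 and -0.515 in the signal table (unadjusted p of 0.0232 and 0.0205 by limma). The third cluster differed by -0.05 at 1% LA (95% interval from -0.56 to 0.47) and by 0.00 at 10% LA (from -0.51 to 0.52), and by 0.07 and -0.02 in the series matrix. The names of the second and the third cluster show no genome position, and no source used here tells which part of the Egr3 transcript each one reads.

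Egr4, the fourth zinc finger gene, read 6.26, 6.01 and 6.72 in vehicle, 6.13, 6.46 and 5.93 at 1% LA, and 5.88, 6.10 and 6.13 at 10% LA on TC0600002615.mm.2. Treated and vehicle arrays overlapped in both tables. The log2 differences were -0.16 and -0.29 (SE 0.22 each), with 95% intervals from -0.63 to 0.32 at 1% LA and from -0.77 to 0.18 at 10% LA. With series matrix values the Egr4 difference was 0.11 at 1% LA, of the opposite sign, and -0.03 at 10% LA.

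**Figure D1:**
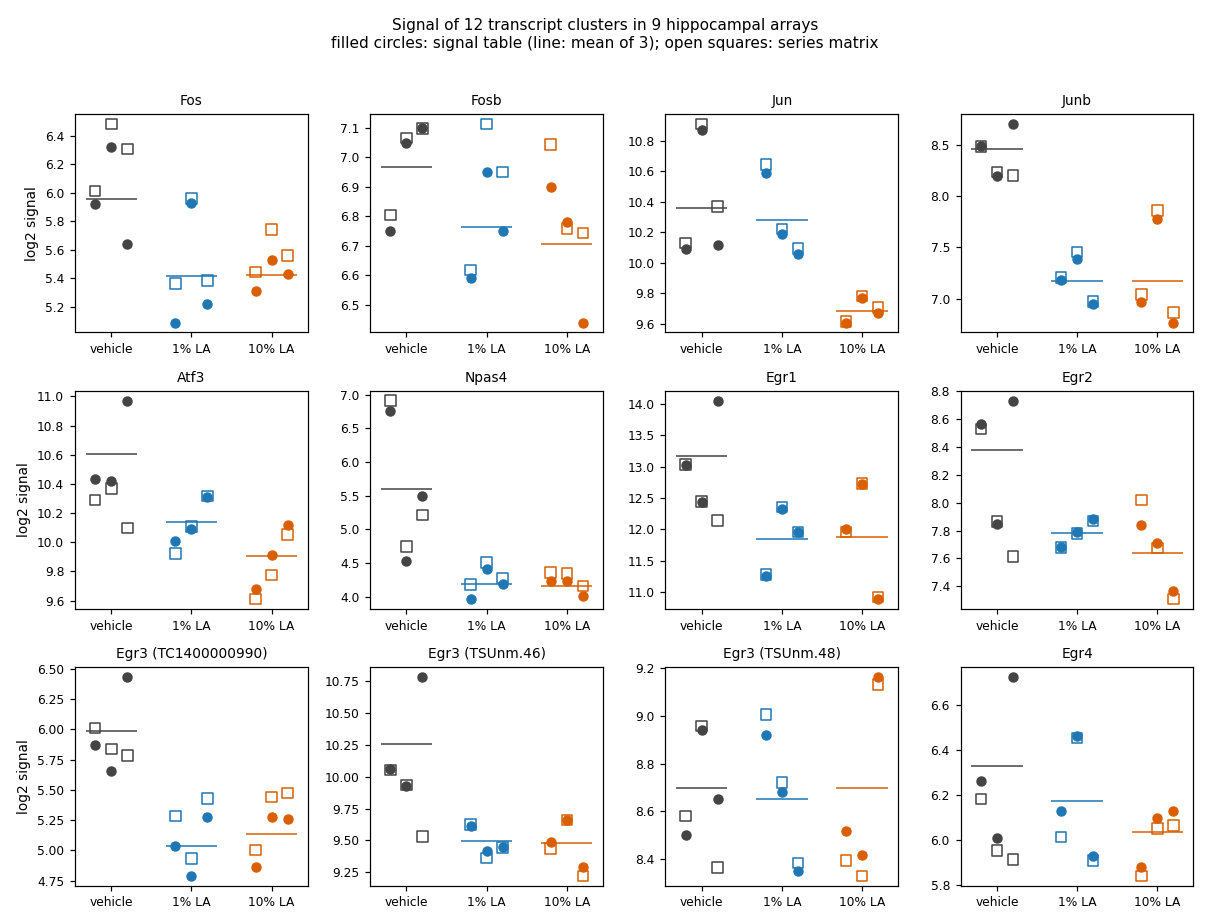
Log2 signal (vertical axis, own scale in each panel) of the 12 transcript clusters in each of the 9 arrays, by group on the horizontal axis and in replicate order within a group. Filled circles are the signal table with a line at the mean of 3, and open squares are the series matrix. Both symbols lie close together on 8 arrays and part on the third vehicle array, where Egr1 reads 14.05 and 12.15. Junb, Npas4 and the Egr3 cluster TC1400000990.mm.2 show all treated symbols below all vehicle symbols of the same kind.

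Counted together, more of the clusters were lower than higher after LA. From the signal table, 6 of the 12 clusters lay below vehicle without overlap at 1% LA, where 6.84% of all 22206 clusters did so, and 8 of 12 at 10% LA, where 6.8% did. At both doses at once it was 5 of 12, those of Junb, Atf3 and Npas4 and 2 of Egr3, against 2.55% of all clusters. With series matrix values the counts were 4 of 12 at 1% LA against 4.99%, 6 of 12 at 10% LA against 5.14%, and 4 of 12 at both doses against 1.5%. Those 4 were Fos, Junb, Npas4 and the Egr3 cluster TC1400000990.mm.2. Without the third vehicle array the signal table again gave 6 and 8 of 12, against 10.1% and 9.89% of all clusters. None of the 12 lay above vehicle without overlap in either table. Of all clusters 5.96% did so at 1% LA and 5.88% at 10% LA in the signal table. In the series matrix the shares were 4.42% and 4.9%, so that a count of 0 among 12 is near them. The shares of members exceeded the shares of all clusters in each count of clusters below vehicle. But the members were chosen with results of these data known, they share the same arrays, and both doses share the same 3 vehicle arrays.

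By limma's unadjusted p under 0.05, 8 of the 12 clusters were lower at 1% LA and 9 of 12 at 10% LA, against 4.74% and 5.54% of all clusters, and 8 of 12 with both doses pooled against 6.59%. Among the 9 clusters that passed the low-signal filter, 5 were lower at 1% LA against 5.6% of the clusters kept, 6 at 10% LA against 7.12%, and 5 with both doses pooled against 8.38%. The series matrix gave 4 of 12 against 2.37%, 6 of 12 against 2.81% and 6 of 12 against 2.86% for the same 3 comparisons. Leaving out the third vehicle array, an alternative chosen after seeing the data, gave 5 of 12 at 1% LA against 2.79% and 8 of 12 at 10% LA against 2.98%. Among the 9 clusters kept, the count at 1% LA was 2 without vehicle replicate 3, 2 without 1% LA replicate 1 and 3 without 1% LA replicate 2. The share of all clusters kept is not given for these settings, so that these counts alone do not show a loss particular to the members. After adjustment over the 13323 clusters kept, 0 of the members and 0 clusters of any kind passed in limma's test, which is 0% in each of the 4 comparisons. At an unadjusted p under 0.05 the clusters kept numbered 1589 at 1% LA, 1853 at 10% LA, 271 between the doses and 2295 with both doses pooled. This count of 0 depended on vehicle replicate 1: without it 222 clusters passed at 1% LA, 533 at 10% LA and 1103 with both doses pooled, and without vehicle replicate 2 the numbers were 1, 3 and 3. Among the members, Junb then passed at 10% LA (adjusted p = 0.0460) and with both doses pooled (adjusted p = 0.0258), and the Egr3 cluster TSUnmapped00000046.mm.2 with both doses pooled (adjusted p = 0.0422), all 3 without vehicle replicate 1. Those fits leave vehicle replicates 2 and 3, and replicate 3 is the array on which the deposited tables disagree. On it that Egr3 cluster read 10.78 in the signal table and 9.53 in the series matrix, and Junb 8.70 and 8.20. These passes and counts therefore lean on the signal table's values for that array.

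**Figure D2:**
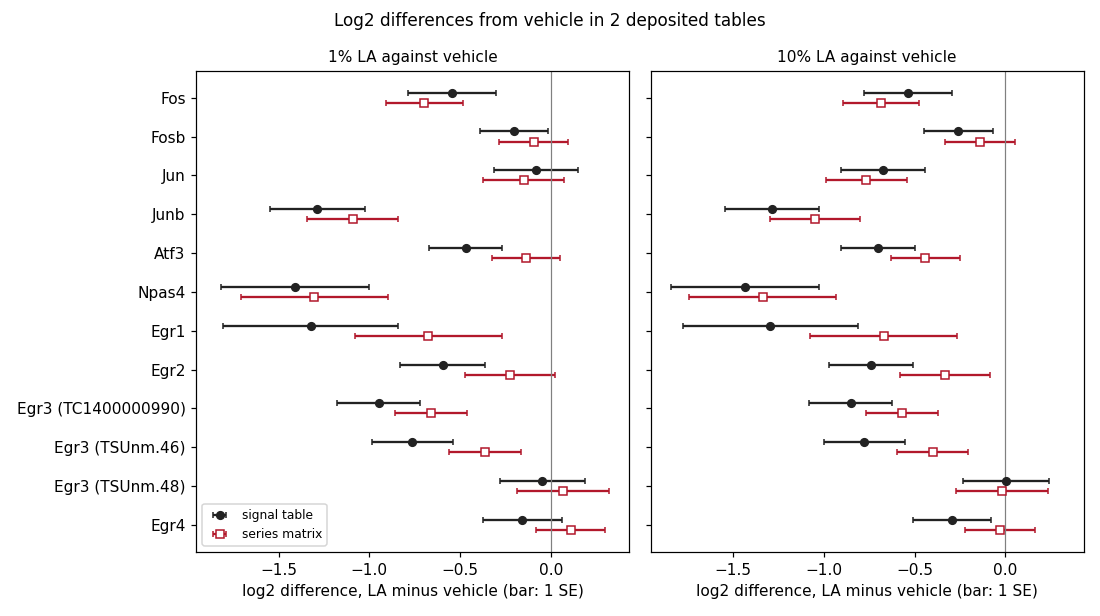
Log2 difference from vehicle (horizontal axis) of the 12 clusters at 1% LA on the left and 10% LA on the right, with bars of 1 standard error from limma. Black circles are the signal table and red squares the series matrix. Junb and Npas4 lie near or beyond -1 in both tables, and Egr1 moves from -1.32 to -0.68 at 1% LA between the tables. Fosb lies between -0.26 and -0.10, Egr4 between -0.29 and 0.11, and the third Egr3 cluster sits around 0.

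Between the doses, the members other than Jun gave small differences. Junb had the same mean at 1% and 10% LA, a log2 difference of 0.00 with a 95% interval from -0.57 to 0.57. The other members ranged from -0.23 for Atf3 to 0.10 for the Egr3 cluster TC1400000990.mm.2, and for all of them the 2 dose groups overlapped. The series matrix gave -0.30 for Atf3 and 0.09 for that Egr3 cluster as the ends of the same range. For Egr1 the interval was widest, from -1.03 to 1.08, so that a change of 2-fold in either direction between the doses lay inside it. Within the vehicle group, replicate 3 was the highest of the 9 arrays in 8 of 12 clusters of the signal table and in 0 of 12 of the series matrix, where vehicle replicate 1 was highest in 6. No vehicle array was the lowest of the 9 for any of the 12 clusters in either table. Replicate 3 of 10% LA was lowest in 5 of 12 in both.

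In the authors' deposited table for 1% LA, an unadjusted p under 0.05 with a linear fold beyond 2 held for 3 of the 12 clusters in the downward direction, where 0.491% of all clusters did so. The same count at 10% LA in the authors' deposited table was again 3 of 12, against 0.675%. At both doses these were Junb, Egr1 and Npas4. The authors' deposited table gave Junb a signed fold of -2.46 at 1% LA and -2.9 at 10% LA, where the minus sign marks a level below vehicle. Its group average for Junb at 10% LA in the authors' deposited table was 6.94, whereas the plain mean of the arrays was 7.17. That plain mean was the same at 1% LA. For Egr1 the authors' deposited table listed -2.35 and -2.31, and for Npas4 -2.61 and -2.52. The Jun fold in the authors' deposited table was 1.08 at 1% LA, above vehicle, and -1.35 at 10% LA, where the authors' group averages differ from the plain means of 3 arrays. The smallest FDR p-value in the authors' deposited table was 0.444 at 1% LA and 0.267 at 10% LA.

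Other genes of the early response were read beside these factors as a list of 40 genes, of which 29 passed the filter. At 1% LA 10 of the 29 had an unadjusted limma p under 0.05 and a lower signal, at 10% LA 11, against 5.6% and 7.12% of all clusters kept, and at neither dose was one higher, with 0 past the adjusted threshold. The list's median log2 difference was -0.27 at 1% LA and -0.24 at 10% LA, against 0.00 and -0.02 over all clusters kept, and in the series matrix 12 were lower at 1% LA, and 10 lower and 1 higher at 10% LA. Of all clusters kept, 2.5% and 3.3% were lower in the series matrix at 1% and 10% LA, and 2.41% were higher at 10% LA. Arc, whose protein removes glutamate receptors from synapses, differed by -1.46 at 1% LA and -1.62 at 10% LA (SE 0.23 each). The orphan nuclear receptor gene Nr4a1 differed by -1.19 and -1.23 (SE 0.28 each), and Cyr61, which encodes a matrix protein, by -0.997 and -1.26 (SE 0.22 each). Klf10, a zinc finger repressor, differed by -0.77 and -0.90 (SE 0.17 each) and the kinase gene Sik1, a brake on CREB coactivators, by -0.97 and -0.65 (SE 0.20 each). Their treated arrays lay below all vehicle arrays at both doses in both tables. With series matrix values Arc differed by -1.52 and -1.56, Nr4a1 by -1.20 at each dose, and Klf10 by -0.73 and -0.86.

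**Figure D3:**
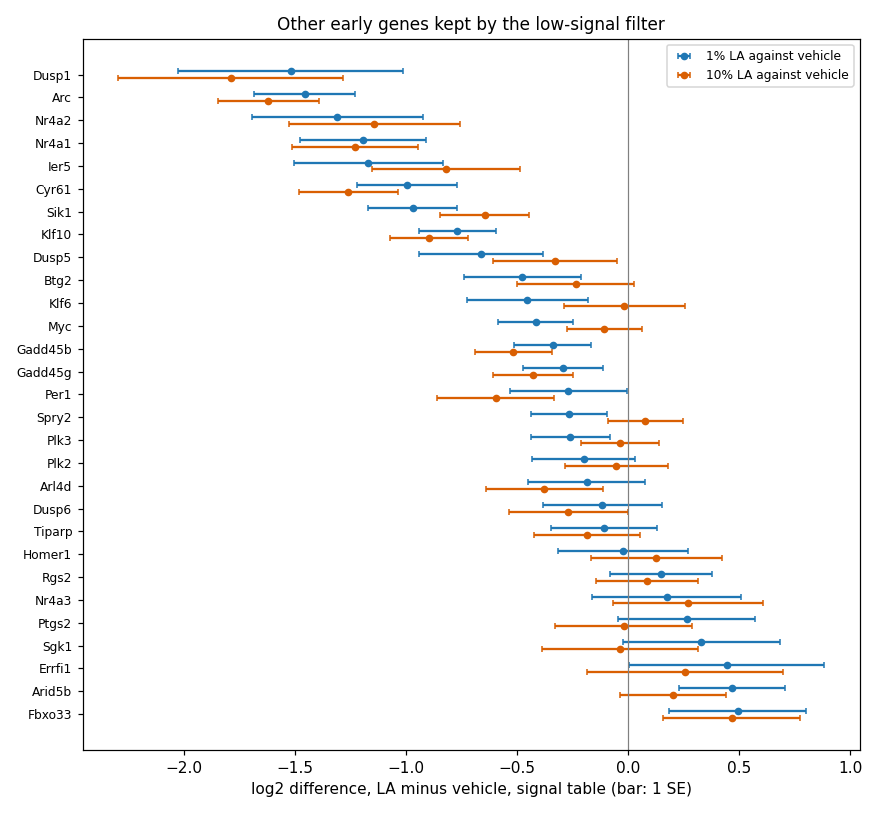
Log2 difference from vehicle in the signal table (horizontal axis) for the 29 other early genes kept by the filter, ordered by the 1% LA value, with bars of 1 standard error from limma. Blue is 1% LA and orange 10% LA. Arc, Nr4a1, Cyr61, Sik1 and Klf10 lie below 0 at both doses, and Fbxo33 lies at the other end.

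The relatives of AP-1 that are not early genes in the same sense and the other lists of the pathway had few lower genes, 1 to 4 in a list, beside 5.6% and 7.12% of all clusters kept, and shares near these are no result about a list. In the series matrix 2.5% and 3.3% of all clusters kept were lower at 1% and 10% LA. Of 15 relatives kept of 19 on the array, 1 was lower at each dose by unadjusted p, and 0 in the series matrix, with medians of -0.07 and -0.17. These were Fosl2, a slower Fos relative, at 1% LA (-0.49, SE 0.19) and Jdp2, a repressor that binds Jun, at 10% LA (-0.76, SE 0.34), and both overlapped with vehicle in the series matrix. Jdp2 overlapped with vehicle in the signal table as well. Of 29 inducers and partners kept, 2 were lower and 1 higher at 1% LA, and 4 lower and 2 higher at 10% LA, with medians of 0.02 and -0.03, and in the series matrix 0 were lower at either dose. Nab1, a corepressor that binds Egr proteins, was higher at 10% LA (0.61, SE 0.19), and so was the histone acetylase gene Ep300 (0.67, SE 0.19). The CREB coactivator gene Crtc2 was lower at 10% LA (-0.47, SE 0.19) and Arnt, whose protein pairs with Npas4, at 1% LA (-0.49, SE 0.18). The groups overlapped in the series matrix for Nab1, Ep300 and Crtc2. Others counted, named after their values were seen like Jdp2, were Map2k2, which encodes a MAP kinase kinase, at both doses (-0.55 and -0.67, SE 0.24 each), and at 10% LA the second Egr corepressor Nab2 (-0.70, SE 0.29) and the Npas4 partner Arnt2 (-0.58, SE 0.22). At 10% LA the arrays of Map2k2, Nab2 and Arnt2 overlapped with vehicle in both tables. Of 20 later effector genes, which include Bdnf and other targets of these factors, 2 were lower at 1% LA and 1 at 10% LA, with medians of -0.08 and -0.05. The neuropeptide precursor gene Vgf was so at both doses (-0.75 and -0.90, SE 0.28 each) and the convertase gene Pcsk1 at 1% LA (-0.52, SE 0.23), both named after their values were seen, and 0 of the 20 were in the series matrix. The arrays of Vgf at both doses and of Pcsk1 at 1% LA overlapped with vehicle in both tables. Among 13 clusters of stress kinases and stress factors, 1 was lower and 1 higher at 1% LA, and 2 lower and 1 higher at 10% LA, with medians of -0.06 and -0.14, against 2 and 0 lower and 0 higher in the series matrix. Mapk11, a p38 kinase gene, differed by -1.15 at 1% LA and -0.90 at 10% LA (SE 0.27 each), and by -0.62 and -0.24 in the series matrix. Ddit3, a factor of the unfolded protein response that Atf3 accompanies, differed by -0.40 at 10% LA (SE 0.18). The kinase gene Mapk10, also named after its values were seen, was higher at both doses (0.92 and 1.07, SE 0.36 each) with arrays that overlapped.

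The clusters most like the members were found by Pearson r over the 9 arrays with the mean standardised profile of the 9 kept clusters, among 11913 other named clusters. As a description, the highest were Flot1 (r = 0.981), Klf10 (0.978), Actr1b (0.977), Zfp444 (0.957), Mul1 (0.952), Diras1 (0.952), Ogdhl (0.944), Stk10 (0.943), Cltb (0.939) and Map3k14 (0.939). Among the lowest r were those of Slc15a2 (-0.972), Prex2, Cnbp and Mpp5 (each -0.970). The 9 points of each r share their arrays and normalization. With series matrix values the r of those 10 ranged from 0.568 for Zfp444 to 0.896 for Diras1. The profile itself differed there: the third vehicle array stood at 1.42 in the signal table, the highest of the 9, and at 0.03 in the series matrix, in units of SD over the arrays. Of these 10, Klf10 alone belongs to the list of early genes.

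The choroid plexus makes cerebrospinal fluid and borders the hippocampus, and its markers varied between the arrays. Of 23 such clusters kept, 22 had a higher signal at 1% LA by unadjusted limma p and 8 at 10% LA, but 1 and 0 in the series matrix. Of all clusters kept, 6.33% were higher at 1% LA and 6.79% at 10% LA by that rule, and 5.6% and 7.12% lower. In the series matrix 2.33% and 2.41% were higher, and 2.5% and 3.3% lower. Marker counts near these shares are no result about a cell type. The median log2 difference of the 23 was 2.36 and 1.25 in the signal table and 1.22 and 0.12 in the series matrix. Their mean log2 level was 6.97, 9.34 and 7.07 in the vehicle arrays, 10.98, 10.07 and 9.96 at 1% LA, and 10.54, 7.88 and 9.20 at 10% LA. The 1% LA arrays were thus all above vehicle, while 10% LA replicates 2 and 3 stood below vehicle replicate 2. On those 2 arrays Junb read 7.78 and 6.77, against 8.19 on vehicle replicate 2. That level was 10.65 for the third vehicle array of the series matrix, above 2 of the 3 arrays of 1% LA, and Junb on that column read 8.20, above all treated arrays. Npas4 on that column read 5.21, the Egr3 cluster TC1400000990.mm.2 5.78 and Fos 6.31, each also above all treated arrays. Egr1, at 12.15, did not exceed all treated arrays. Neither did Atf3, Jun, Fosb, Egr2, Egr4 and the other Egr3 clusters on that column. Markers of microglia moved too, with 4 of 15 higher at 1% LA (P2ry13, Olfml3, Tmem119 and Csf1r) and 6 of 15 at 10% LA, against 1 and 5 in the series matrix, and their mean level ranged from 7.69 to 8.26 in vehicle, from 8.24 to 8.41 at 1% LA and from 8.21 to 8.99 at 10% LA. Of 9 markers of meninges and fibroblasts Igf2, Islr, Dcn and Ogn, 4 in all, were higher at 1% LA, with levels from 7.64 to 8.27 in vehicle and from 8.49 to 8.93 at 1% LA, and 0 were in the series matrix. Of 12 oligodendrocyte markers 4 were higher at 10% LA, among them Mal, Trf and Mog, and the mean level of the 12 ran from 11.52 to 12.64 in vehicle and from 12.48 to 13.12 at 10% LA, while in the series matrix 0 were higher and 2 were lower at 1% LA. Of 9 markers of dentate granule cells, C1ql2, C1ql3 and Rfx3 were higher at 1% LA, and the latter pair also at 10% LA, against 1 and 0 in the series matrix. Of 11 astrocyte markers, Gja1, Mlc1 and Aqp4 were higher at 10% LA and Aldh1l1 lower at 1% LA, with 0 in the series matrix, and of 10 endothelial markers Flt1 and Esam were lower at both doses, Flt1 without overlap in both tables. The part of choroid plexus, meninges, microglia, oligodendrocytes, granule cells, astrocytes and endothelium in the differences of the early genes was not tested.

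**Figure D4:**
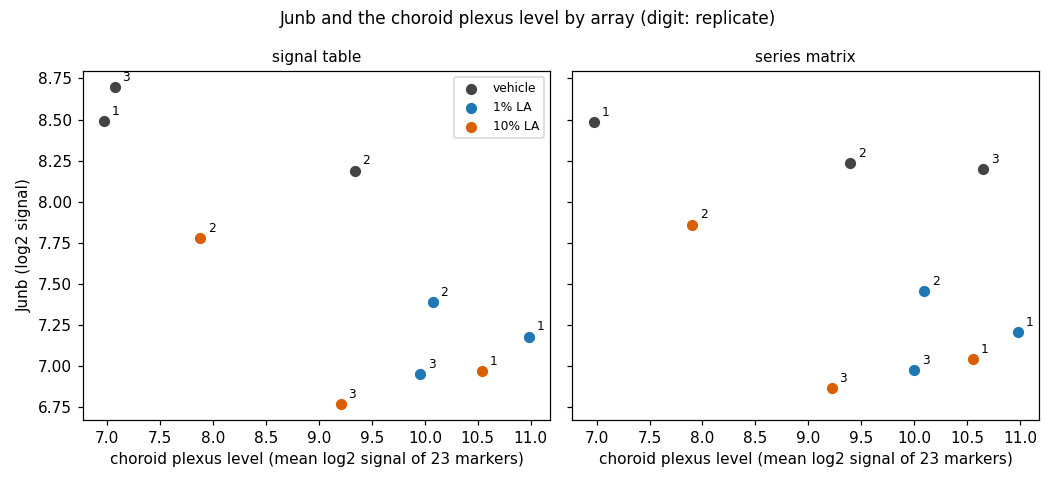
Junb log2 signal (vertical axis) against the mean log2 signal of 23 choroid plexus markers (horizontal axis) for the 9 arrays, in the signal table on the left and the series matrix on the right, coloured by group with the replicate number beside each point. The third vehicle array moves from a level of 7.07 to 10.65 between the tables, and in both its Junb signal stays above that of every treated array.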

How the data were processed

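Hippocampal RNA of 9 samples was read on Clariom S arrays, and groups came from the sample titles. The deposited signal table and series matrix hold log2 signals that the authors normalized by signal space transformation RMA, per the submitters' processing notes and the design text. The design text also names human cells, Transcriptome Analysis Console 4.0.2 and limma. The authors' deposited comparison tables hold log2 group averages, a signed linear fold, which has the unit of a score, and a p-value and FDR p-value per cluster, per the file headers. No source used here gives the genome build behind the clusters.

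Values were used as deposited. limma 3.58.1 (R 4.3.3) was fitted to all 9 arrays with a mean per group, after a trial on simulated data, with Benjamini-Hochberg adjustment over 13323 clusters and 0.05 as the threshold. Clusters with a mean below the 40th percentile were left out, and members below it came from a fit without a filter. SE is limma's moderated standard error. Having 3 arrays per group limits the precision. The labels do not state that each sample is 1 mouse, so p-values measure only the spread between these samples, which may be technical. Single values were also tested by exact two-sided permutation of arrays. Promoters came from RefSeq and were searched with Python 3.11.15.

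The members and lists were chosen with earlier results of these data known. All members are named. Of each other list, up to 5 genes are named, those with an unadjusted p under 0.05 and no overlap with vehicle, by the smallest p. The 10 clusters with the highest and the 5 with the lowest likeness were to be named. Some genes that these rules take are not reported here. The alternatives tried were the series matrix, no filter or the 60th percentile, quantile normalization, median centring, a replicate block, limma-trend with robust variances, only the groups compared, and leaving out each array.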

Additional observations from a re-analysis of the deposited data

How the results depend on the processing

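Over the members' log2 differences, 713 values under an alternative kept their direction and their side of the adjusted threshold, 3 passed it and 36 changed sign, none where the difference as reported exceeded 0.23 in size. The other 16 are those of Junb between the doses, 0 as reported and so without a direction, which ran from -0.303 to 0.202. No member passed the adjusted threshold as reported, so the side kept was that of not passing. Alternatives such as another filter, the replicate block or limma-trend leave the log2 difference as it was, so that no sign could change there. A direction kept is also not a size kept: Egr1 at 1% LA was -1.32 as reported and -0.68 with the series matrix. The sign changes with the series matrix were Egr4 at 1% LA (0.109) and with both doses pooled (0.0398), and the Egr3 cluster TSUnmapped00000048.mm.2 at 1% LA (0.0682), at 10% LA (-0.0169), between the doses (-0.0850) and pooled (0.0257). Quantile normalization turned the dose differences of the Egr3 cluster TSUnmapped00000046.mm.2 (0.0191) and of Fos (-0.0139). Leaving out 1 array at a time, the ranges were -0.23 to 0.17 for Jun at 1% LA, -0.32 to 0.0383 for Egr4 at 1% LA, -0.18 to 0.10 for Egr3 TSUnmapped00000048.mm.2 at 1% LA, -0.23 to 0.14 for Egr3 TSUnmapped00000048.mm.2 at 10% LA, -0.26 to 0.00667 for Egr4 between the doses, -0.15 to 0.0767 for Fosb between the doses, -0.15 to 0.27 for Fos between the doses, -0.0267 to 0.23 for Egr3 TC1400000990.mm.2 between the doses, -0.40 to 0.52 for Egr1 between the doses, -0.14 to 0.0867 for Npas4 between the doses, -0.10 to 0.0817 for Egr3 TSUnmapped00000046.mm.2 between the doses, -0.18 to 0.19 for Egr3 TSUnmapped00000048.mm.2 between the doses, -0.14 to 0.10 for Egr3 TSUnmapped00000048.mm.2 pooled. The cause was not tested.

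The numbers of clusters past the adjusted threshold ranged from 0 to 222 at 1% LA, from 0 to 533 at 10% LA and from 0 to 1103 with both doses pooled when 1 array was left out, and limma-trend with robust variances gave 2 with both doses pooled. Members past an unadjusted p of 0.05 among those kept were 1 at 1% LA, 3 at 10% LA and 3 pooled with the series matrix, and 8 at 1% LA and 8 pooled with no filter, which adds the 3 clusters of low signal. In the series matrix 2.5%, 3.3% and 3.31% of all clusters kept were lower by that rule. With no filter 4.74% of all clusters were lower at 1% LA and 6.59% pooled. Left-out arrays gave 2 to 5 members at 1% LA, 5 to 6 at 10% LA, 0 to 1 between the doses, 4 to 6 pooled. The shares of all clusters kept under these settings are not given here. Replicate numbers did not pair the samples, with correlations of same-numbered deviations between -0.169 and 0.168, and with the replicate block 5, 6, 1 and 5 members passed, as without it, and 0 clusters passed after adjustment. The median standard error of 0.21 at 1% LA limits what could be seen.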
